A study of Mus musculus with 7 samples.

Results

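Numbered zinc finger protein genes of the mouse carry the prefix Zfp. Here they are the rows from Zfp600 to Zfp999, taken by name from tables of liver gene expression: 139 of 23366 rows carried a Zfp symbol with a 3-digit number in that range and no letter after it. The livers were those of the inbred mouse strain C57BL/6, aged 21 months (n = 3) or 3 months (n = 4), with no treatment or engineered allele named in the labels. The question asked of these genes is whether they differed between old and young adult livers. Polyadenylated RNA was sequenced with a strand-specific ligation protocol. Whether each library is a separate animal is not in the labels, so p-values measure the spread between libraries, which may be technical. Genes entered by name, but the name range was selected on results of this same age comparison, so counts and medians over these genes are descriptions, and no test was made over them as a set.

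Most genes of this naming series encode proteins with repeated C2H2 zinc fingers, small folds held together by a zinc ion, each of which can read a few DNA bases. Many also begin with a KRAB domain, which binds Trim28 (KAP1). Trim28 in turn brings the histone methyltransferase Setdb1 and the Mi-2 nucleosome remodelling complex to DNA, where they silence retroelements and imprinted loci. Other members have no KRAB domain and act in RNA processing, ribosome assembly or signalling, so the shared name does not mean a shared function. KRAB genes lie in tandem arrays of related copies, and short reads from one copy can match another.

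Of the 139 rows, all matched a gene of the GRCm38.p6 RefSeq table, 136 by symbol and 3 through a transcript accession. Zfp607 is listed there as Zfp607a, Zfp828 as Champ1, and Zfp862 as the pseudogene Zfp862-ps. They lay on 19 chromosomes, with 31 on chromosome 7, 19 on chromosome 17 and 17 on chromosome 8. Of 137 that are protein coding in that table, 74 had a numbered Zfp gene as an immediate neighbour. Zfp738, Zfp748 and Zfp953 belonged to an unbroken run of 20 numbered Zfp genes on chromosome 13, and Zfp790 to a run of 15 on chromosome 7.

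Promoter sequence was at hand in RefSeq (GRCm38.p6; 250 bases before to 50 after the start of a gene) for 118 of the 139 genes, 1 window each. Of these windows, 63.6% held at least 10 CpG dinucleotides, against 43.9% of the 27025 windows of all genes, and the median count was 12 against 7. CCAAT on either strand occurred in 55.9% of the Zfp windows and 37.9% of all windows, GGGCGG in 46.6% and 35.9%, and CCGGAAG in 15.3% and 9.12%. TATAAA occurred in 3.39% and 14.2%, the NRF1 motif in 3.39% and 0.977%, and AAGATGGCG in 1.69% and 1.49%. The windows of all genes were not limited to protein-coding genes, and other numbered Zfp genes were not counted apart. Whether these contrasts are particular to this range was not tested. Where several windows were listed for a gene the first was taken, as for Zfp809, which had 2. The windows of Zfp790 and Zfp787, both lower in old livers, and of Zfp809, the best known repressor of the group, are given as examples. They lie at chr7:29815822-29816121 (plus strand), chr7:6155916-6156215 (minus strand) and chr9:22225453-22225752 (plus strand) and held 16, 27 and 11 CpG. Capitals mark matches to these motifs, which were 1 CCAAT in Zfp790, 1 GGGCGG and 2 CCGGAAG in Zfp787, and 1 CCAAT in Zfp809, on either strand.
Zfp790: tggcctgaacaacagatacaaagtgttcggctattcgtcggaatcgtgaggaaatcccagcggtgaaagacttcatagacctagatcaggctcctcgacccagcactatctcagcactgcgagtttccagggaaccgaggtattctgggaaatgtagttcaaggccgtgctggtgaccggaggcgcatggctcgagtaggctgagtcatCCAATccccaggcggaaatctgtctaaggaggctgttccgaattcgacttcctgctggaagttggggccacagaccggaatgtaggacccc
Zfp787: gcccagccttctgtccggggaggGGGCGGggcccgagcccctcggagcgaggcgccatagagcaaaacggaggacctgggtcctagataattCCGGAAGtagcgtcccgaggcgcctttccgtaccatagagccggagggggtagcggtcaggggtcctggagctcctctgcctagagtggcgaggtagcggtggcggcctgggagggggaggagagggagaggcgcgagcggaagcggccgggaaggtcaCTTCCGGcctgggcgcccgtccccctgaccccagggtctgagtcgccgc
Zfp809: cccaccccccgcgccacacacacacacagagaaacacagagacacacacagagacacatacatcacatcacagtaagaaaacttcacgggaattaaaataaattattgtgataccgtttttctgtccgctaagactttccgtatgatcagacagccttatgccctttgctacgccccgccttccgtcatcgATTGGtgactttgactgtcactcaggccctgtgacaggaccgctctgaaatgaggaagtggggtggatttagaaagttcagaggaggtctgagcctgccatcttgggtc
A motif match is a description of the letters in the window. The data hold no measurement of factor binding or methylation at these sites.

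The libraries held 6882935 to 10458583 estimated counts at 21 months and 4724687 to 11143125 at 3 months. Rn45s, the ribosomal RNA precursor, took 20.0% to 22.4% of the counts at 21 months and 18.7% to 25.6% at 3 months in these libraries. Effective length lay below gene length by a median of 35.4, 30.9 and 21.4 bases in 21-month replicates 1, 2 and 3, against 34.4 to 38.8 bases at 3 months. This shortfall is called fragment length below, but whether it reflects fragments or the length of reads was not tested. Summed markers of hepatocytes ran from 73544 to 77285 CPM (counts scaled to library size) at 21 months and from 56804 to 69182 CPM at 3 months, and no listed hepatocyte marker was at 0. Summed markers of other cells were far lower. The 5 B cell markers summed to 8.18 to 37.8 CPM at 21 months and 2.76 to 3.64 CPM at 3 months. The 4 T and NK cell markers summed to 2.17 to 3.63 CPM at 21 months and 0.487 to 0.858 CPM at 3 months. The 6 macrophage rows found summed to 77.1 to 231 CPM at 21 months and 141 to 228 CPM at 3 months, the 4 endothelial ones to 46.4 to 108 CPM and 71.9 to 132 CPM. Stellate markers summed to 150 to 217 CPM at 21 months and 105 to 155 CPM at 3 months, and bile duct markers to 11.9 to 13.7 CPM and 15.8 to 24.1 CPM. The part of these cells in the values below was not tested, and in bulk liver fewer cells of a type and less RNA per cell cannot be told apart.

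The Zfp600 to Zfp999 genes were weakly expressed. On the TPM scale (transcript abundance scaled to the library and corrected for length), 14 of 139 averaged at least 10 TPM over the 7 libraries, 80 lay between 1 and 10 TPM and 45 below 1 TPM. Zfp616, Zfp648, Zfp663 and Zfp957 had no count in any library. The 10 highest members held 40.9% of the summed TPM of the group. Together the 139 rows summed to 566, 601 and 579 TPM in 21-month replicates 1, 2 and 3, against 489, 568, 603 and 502 TPM in 3-month replicates 1 to 4. In CPM the sums were 851, 862 and 834 at 21 months, against 818, 849, 878 and 844 at 3 months. The ages overlapped in both sums. A count was seen for 129 to 130 of the 139 members in the 21-month libraries and for 126 to 128 in the 3-month libraries.

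After a filter on low counts, 106 members were tested. The other 33 had a median of 18 counts over all 7 libraries and at most 76 (Zfp764). Of the 106, 97 reached the filter's minimum of 1.45 CPM in at least 2 libraries of each age, 3 did so only at 21 months and 6 only at 3 months. Those 9 passed through the libraries of 1 age alone, so the 106 are not a neutral sample of the 139. Over all 11251 genes tested, edgeR's quasi-likelihood test called 11.3% at an adjusted p under 0.05, 5.86% lower and 5.47% higher at 21 months. On the log2(TPM + 1) scale 74.1% of all calls were higher, against 48.3% here. Of the 106 Zfp genes edgeR called 4 (3.77%), with 3 lower and 1 higher at 21 months. The 4 were Zfp704, Zfp862, Zfp790 and Zfp787.

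Zfp704, also named Gig1 in RefSeq, stood at 1.71, 1.59 and 1.81 TPM in 21-month replicates 1 to 3, against 0.90, 1.20, 1.13 and 0.73 TPM in 3-month replicates 1 to 4. Every 21-month library was above every 3-month library. It rose to 11.3 ± 0.966 CPM at 21 months (SD, n = 3), against 7.09 ± 1.05 CPM at 3 months (SD, n = 4), a log2 fold change of 0.66 ± 0.17 (SE; edgeR adjusted p = 0.0207). With 13844 bases it was the longest gene tested among the members.

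Zfp862, an annotated pseudogene in the later RefSeq table, stood at 1.12, 0.55 and 0.96 TPM in the 21-month libraries, against 1.83, 2.37, 1.20 and 1.64 TPM in the 3-month libraries. The ages did not overlap, though 21-month replicate 1 and 3-month replicate 3 lay close together. Counts were 35, 11 and 23 at 21 months and 34, 82, 18 and 35 at 3 months. It fell to 2.57 ± 0.966 CPM at 21 months, against 5.64 ± 1.45 CPM at 3 months (log2 fold change -1.13 ± 0.29, edgeR adjusted p = 0.0227). This was the only tested member with a 2-fold or larger difference in the fit.

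Zfp790 stood at 3.82, 3.55 and 4.27 TPM at 21 months, against 5.58, 4.70, 5.79 and 5.16 TPM at 3 months. It fell to 8.29 ± 0.773 CPM in old livers, against 12.5 ± 1.5 CPM in young livers (log2 fold change -0.57 ± 0.16, edgeR adjusted p = 0.0354). Zfp787, the most abundant of the 4, stood at 22.9, 23.5 and 22.2 TPM at 21 months, against 27.7, 26.7, 31.0 and 26.2 TPM at 3 months. It fell to 20.4 ± 1.11 CPM, against 27.1 ± 1.96 CPM at 3 months (log2 fold change -0.40 ± 0.12, edgeR adjusted p = 0.0371). For both genes the ages were apart in every library, in TPM as in CPM.

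None of the 4 calls held under every setting. With the replicate number as a block, Zfp862 kept its call (edgeR adjusted p = 0.0364) and Zfp704, Zfp790 and Zfp787 lost it (0.0703, 0.0564 and 0.0743). Only the 3-month group has a replicate 4, so in this fit that library added nothing to the age difference. All 4 lost it with fragment length as a covariate (edgeR adjusted p = 0.103, 0.224, 0.125 and 0.229 for Zfp704, Zfp862, Zfp790 and Zfp787), and all 4 on the log2(TPM + 1) scale (limma adjusted p = 0.0937, 0.0861, 0.144 and 0.145). Of all genes tested, 2.95% were called with that covariate and 9.63% on that scale, against 11.3% in the main fit. Fragment length in 21-month replicates 2 and 3 (30.9 and 21.4 bases) lay below every 3-month library (34.4 to 38.8 bases). The fit with this covariate therefore separates it from age only in part, and whether it bears on these calls was not tested. Without 3-month replicate 4, or without 21-month replicate 3, no member was called. Without 21-month replicate 2 only Zfp704 was called, and without 21-month replicate 1 there were 7 calls, these 4 among them. In the order given, the fits without these libraries called 6.57%, 5.1%, 9.94% and 14.4% of all genes tested. Zfp704 kept its call with 5 of the 7 libraries left out in turn, and each of the others with 2 of 7. In all 21 alternative settings the sign of each of the 4 was unchanged, with log2 fold changes of 0.45 to 0.75 for Zfp704, -1.41 to -0.55 for Zfp862, -0.66 to -0.37 for Zfp790 and -0.46 to -0.27 for Zfp787.

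**Figure D1:**
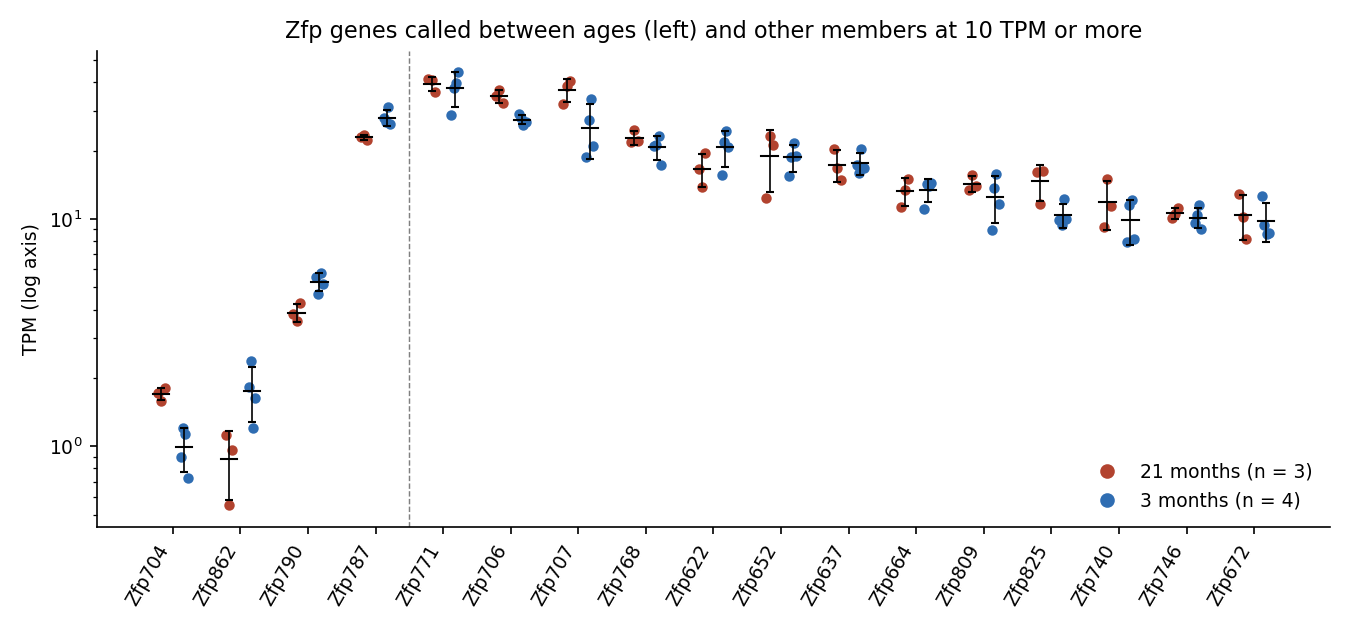
TPM on a log axis for the 4 members called between ages (left of the dashed line) and the 13 other members with a mean of at least 10 TPM, with 21-month libraries (red, n = 3) left of 3-month libraries (blue, n = 4). Points are libraries, bars mean ± SD; the 4 called genes have no overlap between ages, and Zfp706 is the next gene with none, at 32.4 to 36.9 TPM against 25.9 to 28.8 TPM.

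The threshold passed through a continuous range. Just inside it was Zfp787 (adjusted p = 0.0371), and just outside were Zfp707 (log2 fold change 0.44 ± 0.14, edgeR adjusted p = 0.0577) and Zfp830 (-0.55 ± 0.19, 0.0665). Zfp707 stood at 32.0, 38.6 and 40.3 TPM at 21 months, against 18.7, 27.4, 33.8 and 21.0 TPM at 3 months, with 3-month replicate 3 inside the old range. Among the settings that did call Zfp707 were removal of the ribosomal RNA rows (edgeR adjusted p = 0.0484) and an offset for abundance (0.0432). In the edgeR test 15 of the 106 had an unadjusted p under 0.05, 8 higher and 7 lower. Over all 11251 genes tested, 2988 did, 1429 higher and 1559 lower. In CPM, 17 of the 106 had no overlap between ages (16.0%), 10 lower and 7 higher at 21 months, against 24.2% of all genes tested. Among the 17 were Zfp697 and Zfp619, which passed the filter through the libraries of 1 age only, so the count is not free of the filter.

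The 8 most abundant members were Zfp771, Zfp706, Zfp707, Zfp787, Zfp768, Zfp622, Zfp652 and Zfp637. Zfp771 was highest, at 41.1, 40.7 and 36.1 TPM at 21 months and 28.5, 37.7, 39.8 and 44.2 TPM at 3 months, with the old libraries inside the young range (log2 fold change -0.05 ± 0.15). Zfp706, which in mouse embryonic stem cells restrains Klf4, stood at 34.7, 36.9 and 32.4 TPM at 21 months and 28.8, 27.8, 25.9 and 26.8 TPM at 3 months. In CPM its ages overlapped (66.6 to 77.1 against 55.8 to 69.5; log2 fold change 0.21 ± 0.11, edgeR adjusted p = 0.209). Mean levels of neighbours in this order differed by less than the spread between libraries for Zfp706 and Zfp707 (30.5 and 30.3 TPM over all libraries), and for Zfp622 and Zfp652 (18.9 and 18.8 TPM).

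Zfp622, whose human and yeast relatives act in maturation of the large ribosomal subunit, stood at 16.5, 13.8 and 19.4 TPM at 21 months, against 15.6, 21.8, 24.4 and 20.8 TPM at 3 months. Its log2 fold change was -0.43 ± 0.15 (edgeR adjusted p = 0.0712), and it was called without 3-month replicate 1 (0.0430), the low young library. Zfp768 (log2 fold change 0.03 ± 0.11), Zfp652 (-0.12 ± 0.17) and Zfp637 (-0.11 ± 0.18) had differences smaller than their SE.

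Of the members with a known part in silencing retroelements, Zfp809 was the most abundant. It is a KRAB protein that binds the primer binding site of murine leukaemia viruses and recruits Trim28. It stood at 13.4, 15.7 and 13.9 TPM at 21 months, against 8.92, 13.7, 15.9 and 11.7 TPM at 3 months, and the ages overlapped (log2 fold change 0.05 ± 0.17, edgeR adjusted p = 0.900). Zfp932, a repressor of endogenous retroviruses in mouse cells, stood at 8.83, 5.49 and 6.39 TPM at 21 months, against 6.63, 5.15, 5.23 and 5.20 TPM at 3 months (0.22 ± 0.23, 0.586). Zfp708, which binds a retroelement family in the mouse, stood at 2.28, 2.72 and 1.11 TPM at 21 months, against 1.03, 1.5, 1.82 and 0.77 TPM at 3 months (0.57 ± 0.37, 0.366). Zfp819 had 1 count at 21 months and 0 at 3 months. None of the 3 that were tested passed the threshold.

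The other members named for a known role were not called. Zfp746 (PARIS), which represses Ppargc1a and is degraded through parkin, stood at 10.1, 10.5 and 11.2 TPM at 21 months and 9.64, 10.5, 11.5 and 9.03 TPM at 3 months (log2 fold change -0.05 ± 0.12). Zfp664 stood at 11.3, 13.4 and 15 TPM at 21 months and 11.1, 14.2, 13.9 and 14.4 TPM at 3 months (-0.15 ± 0.13). In both genes the old libraries lay across the young range.

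Zfp703, a corepressor whose human relative is amplified in breast cancer, stood at 4.59, 11.1 and 7.49 TPM at 21 months and 4.45, 5.65, 6.75 and 5.54 TPM at 3 months (0.31 ± 0.23, edgeR adjusted p = 0.443). Its 21-month libraries spread more widely than its 3-month ones. Zfp750, known for its part in epidermal differentiation, stood at 5.45, 5.72 and 5.06 TPM at 21 months and 6.63, 6.31, 7.18 and 5 TPM at 3 months (-0.32 ± 0.16, 0.220). Its ages were apart in CPM but not in TPM.

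Zfp655 had a log2 fold change of 0.22 ± 0.16, Zfp644, a partner of the histone methyltransferases Ehmt1 and Ehmt2, one of -0.06 ± 0.16, Zfp668 one of -0.36 ± 0.23 and Zfp689 one of -0.62 ± 0.35. Their edgeR adjusted p ran from 0.276 to 0.869. Zfp827, which in human cells acts at telomeres, had 2 counts at 21 months and 3 at 3 months and was not tested.

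Across the 106 tested members the median log2 fold change was 0.02, with 56 above 0 and 50 below, and the quartiles were -0.28 and 0.30. Over all 11251 genes the median was 0.00 and the quartiles were -0.21 and 0.21. The sign of the members' median was not stable: it was -0.02 with limma's sample weights, 0.00 with the replicate block, and -0.05 without 21-month replicate 1. On the log2(TPM + 1) scale it was 0.10, where the median of all genes was also 0.10. The members' median SE was 0.25, against 0.16 over all genes tested, and their median of 214.5 counts over the 7 libraries compares with 810 for all genes tested.

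The members were set beside genes of like abundance by dividing all genes tested into quintiles of mean CPM. The lowest quintile (0.743 to 4.44 CPM) held 59 of the 106 members, the next (up to 10.7 CPM) 27, the middle one 9, the one above it 10 and the highest 1. In the lowest quintile 1 of 59 members was called (1.69%), against 5.20% of the 2192 other genes there. In the next, 2 of 27 were called (7.41%), against 8.05% of 2223 others. In the middle quintile, 0 of 9 were called by edgeR, against 12.6% of others, and in the one above it 1 of 10 (10.0%), against 13.5%. Non-overlap of the ages in CPM gave another order in the lowest quintile, with 11 of 59 members (18.6%) against 14.8% of others, and 18.5% against 20.0% in the next. These 11 include Zfp697 and Zfp619, which passed the filter through 1 age only. The median log2 fold change in the lowest quintile was 0.15 for members and 0.05 for the other genes, and in the quintile below the highest -0.14 and -0.01. The range was selected on this comparison, so nothing is read from these shares.

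**Figure D2:**
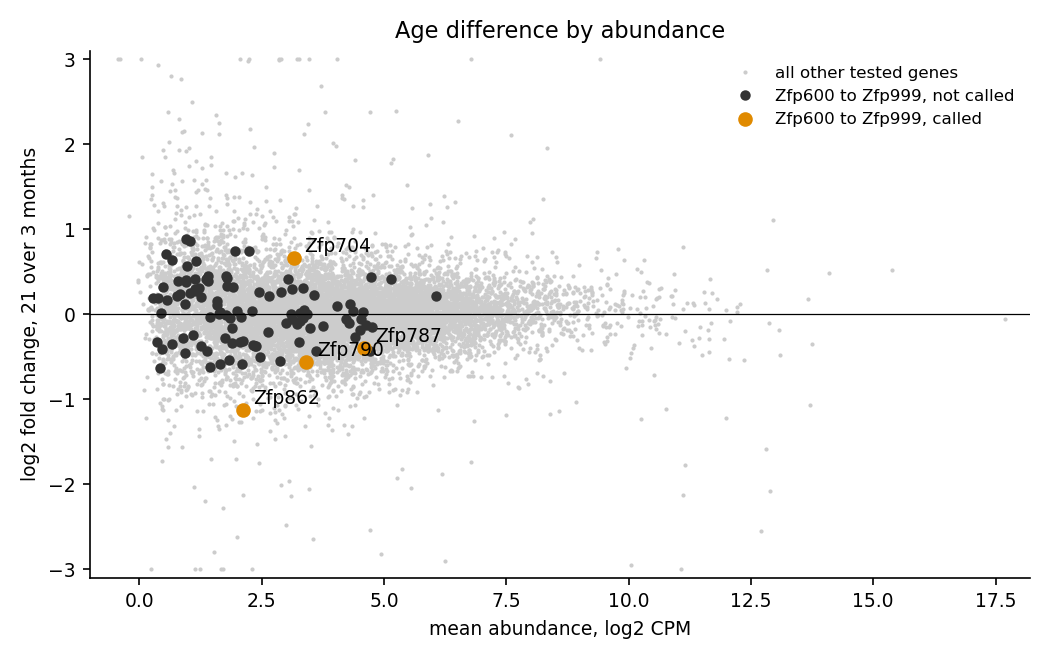
Log2 fold change, 21 over 3 months, against mean abundance (log2 CPM) for the 106 tested members (black; 4 called ones in orange) and all other tested genes (grey; values beyond 3 in either direction are drawn at 3). The members crowd at low abundance, where the grey points also spread most, and 1 of 59 members in the lowest quintile was called.

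Gene length showed little relation to the members' differences. The tested members ran from 1016 to 13844 bases with a median of 3240 bases, against 2812 bases for all genes tested. Spearman's correlation between length and log2 fold change was -0.03 over the 106 members and -0.01 over all 11251 genes, given as a description since genes of a library share its depth and fragment size. The shorter 53 members had a median log2 fold change of 0.04 and the longer 53 one of -0.01. By quintiles of length over all genes tested, the members' medians were -0.05, 0.20, 0.01, 0.01 and -0.01 from the shortest to the longest, with 5, 18, 34, 30 and 19 members. The other genes' medians were -0.01, 0.02, 0.00, -0.01 and -0.01. An offset for length in each library called 5 members, the same 4 and Zfp871, and left the members' median at 0.03. It also called more of all genes tested, 13.1% against 11.3% in the main fit.

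**Figure D3:**
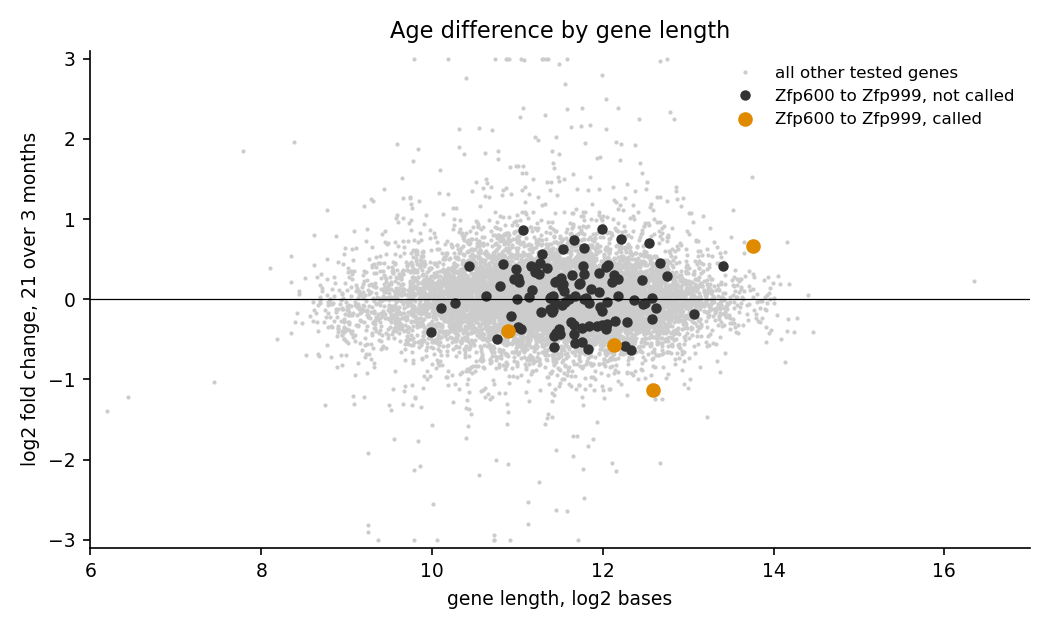
Log2 fold change, 21 over 3 months, against gene length (log2 bases) for the tested members (black; 4 called ones in orange) and all other tested genes (grey; values beyond 3 in either direction are drawn at 3). The members show no slope, and the called ones lie at both short and long lengths, Zfp704 at 13844 bases being the longest member.

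Gene length in these tables is weighted by the estimated mix of transcripts, so a change in it can reflect a shift between isoforms or error in that estimate. Of 23 tested members with several annotated transcripts, 3 had weighted lengths that did not overlap between ages, Zfp945, Zfp862 and Zfp809. Over all 2784 tested genes with several transcripts, 7.87% did not overlap. Zfp809 measured 1580, 1538 and 1566 bases at 21 months, against 1605, 1599, 1598 and 1590 bases at 3 months, a mean difference of -36.7 bases. Zfp862 measured 6114 bases in each old library, from 35, 11 and 23 counts, against 6189, 6133, 6189 and 6146 bases in the young ones. Zfp945, with a mean of 0.81 TPM, measured 6548, 6618 and 6551 bases at 21 months, against 6497, 6541, 6497 and 6527 bases at 3 months. For Zfp862 and Zfp945 the estimated mix rests on few reads, and a shift between isoforms was not tested.

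Members whose reads are shared with another gene had higher fold changes than the rest. A gene's estimated count is whole where all its reads are its own, and 52 of the 106 tested members (49.1%) had whole counts in every library, within 0.005, against 67.8% of the other genes tested. The 54 with shared counts had a median log2 fold change of 0.19, with 37 above 0. The 52 with whole counts had one of -0.11, with 19 above 0. In the lowest quintile of abundance the split was 0.22 for 37 members against -0.20 for 22. No such gap showed in the other numbered Zfp rows, at -0.11 for 65 rows with shared and -0.09 for 78 with whole counts, or in all genes that are not members, at 0.02 and -0.01. Among the called members, Zfp704 and Zfp862 had shared counts and Zfp790 and Zfp787 whole ones. The split was seen after the values were known and was not tested.

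A single library carried most of the shift in members with shared counts. Taken as the deviation of log2 CPM from each gene's mean, their median was 0.26 in 21-month replicate 1 and -0.02 and -0.01 in 21-month replicates 2 and 3, against -0.07 to -0.01 in the 3-month libraries. Without 21-month replicate 1 their median log2 fold change was 0.00. Members with whole counts had deviations of -0.06 to -0.02 at 21 months and -0.04 to 0.13 at 3 months. Their median log2 fold change was below 0 in 19 of the 21 alternative settings, at -0.11 at the lowest, and at 0.05 and 0.06 on the 2 TPM scales, where the median of all genes was 0.10 and 0.12.

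**Figure D4:**
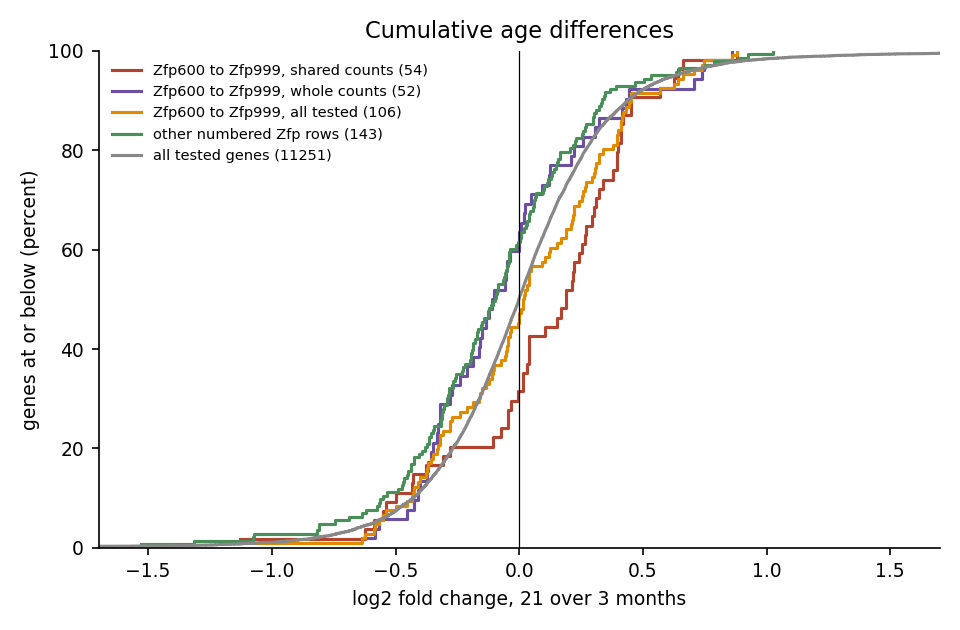
Cumulative percentage of genes against log2 fold change, 21 over 3 months, for tested members with counts shared with another row (54), those with whole counts (52), all tested members (106), the other numbered Zfp rows (143) and all tested genes (11251). Members with shared counts lie right of all genes (median 0.19), those with whole counts left of them (-0.11), close to the other numbered Zfp rows (-0.10).

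Position along the genome went with direction on a few chromosomes, a pattern picked out after the values were seen. On chromosome 13 all 7 tested members were above 0 in the edgeR fit, but Zfp748 was at -0.16 and -0.24 on the log2(TPM + 1) and log2(TPM + 0.1) scales, at -0.27 with sample weights and at -0.15 without 21-month replicate 1. The median of the 7 was 0.31 and the range 0.15 to 0.57, while 49.9% of the 365 other tested genes there were above 0. The 7 were Zfp708, Zfp738, Zfp748, Zfp759, Zfp825, Zfp935 and Zfp953, none of them past the threshold. The most abundant, Zfp825, stood at 16.2, 11.7 and 16.2 TPM at 21 months, against 9.92, 9.40, 12.3 and 10.0 TPM at 3 months, so that the ages overlapped through 21-month replicate 2. Zfp759 stood at 1.58, 1.48 and 1.62 TPM at 21 months, against 1.35, 1.23, 1.07 and 0.66 TPM at 3 months, with no overlap in TPM but with overlap in CPM. The median of the 7 stayed between 0.22 and 0.48 in all 21 alternative settings. However, 6 of the 7 had counts shared with another row, and whether they share reads with each other was not tested. The other numbered Zfp rows of the same chromosome did not lean that way, with 4 of 11 above 0 and a median of -0.05.

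On chromosome 17, 12 of 16 tested members were above 0 with a median of 0.23, but 15 of the 16 had shared counts and the median was -0.04 without 21-month replicate 1. On chromosome 6, 6 of 7 were below 0 with a median of -0.32 (-0.40 to -0.12 over the alternative settings), and 5 of the 7 had whole counts. The other 2, Zfp862 and Zfp956, had shared counts. Zfp956 stood at 1.78, 1.65 and 2.14 TPM at 21 months and 2.68, 2.78, 2.56 and 2.31 TPM at 3 months (log2 fold change -0.59 ± 0.25, edgeR adjusted p = 0.149). Of the 7 other numbered Zfp rows tested on chromosome 6, 2 were above 0, with a median of -0.26, against 50.4% above 0 among all 510 genes there that are not members. Members with and without a numbered Zfp gene as neighbour had medians of 0.03 (59 tested) and 0.01 (46 tested).

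**Figure D5:**
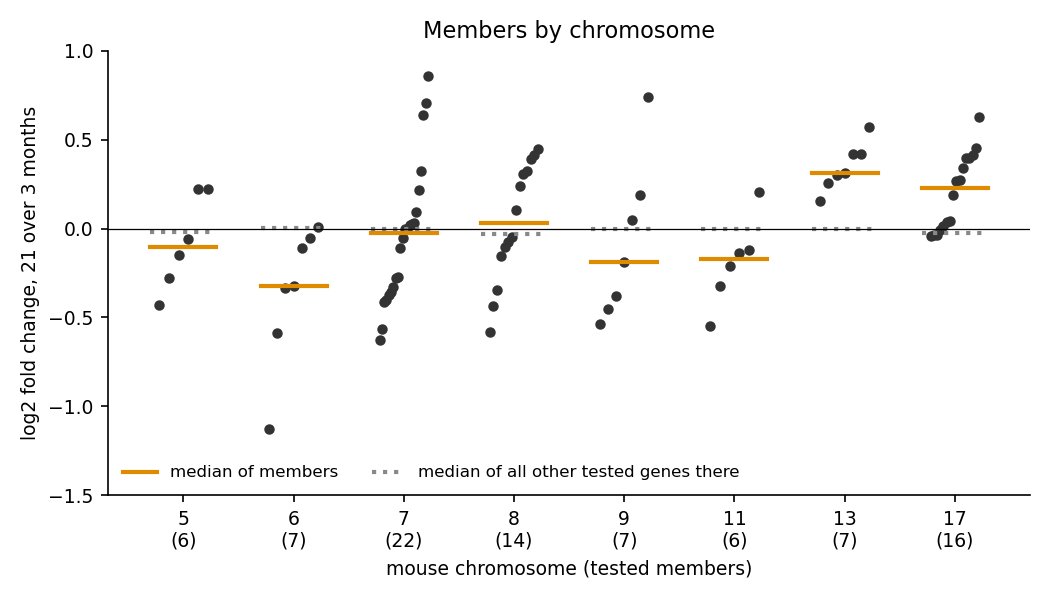
Log2 fold change, 21 over 3 months, of each tested member (black points) on the 8 chromosomes with at least 6 of them, with the median of members (orange) and of all other tested genes on that chromosome (dotted grey). All 7 points of chromosome 13 lie above 0 in this fit (Zfp748 was at -0.16 on the log2(TPM + 1) scale), and 6 of 7 on chromosome 6 lie below it.

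The other numbered rows of the naming series, outside the range or with a letter after the number, gave a comparison. Of 215 such rows 143 were tested and 13 were called (9.09%), 7 lower and 6 higher at 21 months. Their median log2 fold change was -0.10, with 88 below 0 and 55 above. On the log2(TPM + 1) scale it was 0.00, where the median of all genes was 0.10. The falls with the smallest adjusted p were Zfp9 (log2 fold change -1.53 ± 0.21, edgeR adjusted p = 0.000704), Zfp110 (-0.69 ± 0.14, 0.00609), Zfp263 (-0.81 ± 0.17, 0.00885) and Zfp369 (-1.08 ± 0.25, 0.0121). The rises with the smallest were Zfp395 (1.03 ± 0.17, 0.00401) and Zfp488 (0.47 ± 0.11, 0.0127). Zfp9 stood at 1.47, 1.15 and 1.41 TPM at 21 months, against 3.22, 4.30, 3.69 and 3.24 TPM at 3 months, a larger log2 fold change in size than in any tested member. Zfp57, which protects imprinted loci, had 8 counts at 21 months and 6 at 3 months and was not tested.

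The proteins through which KRAB zinc fingers silence DNA were better measured. Of 36 listed partners found, 33 were tested, and 6 fell and 0 rose, against 5.86% lower and 5.47% higher over all genes. The list was written with earlier results of these data known, so its count is no independent evidence. The falls were Chd3, Chd4 and Mta2 of the Mi-2 complex (log2 fold changes -0.50 ± 0.09, -0.38 ± 0.10 and -0.39 ± 0.10), Mphosph8 and Morc2a, which work with the HUSH silencing complex (-0.99 ± 0.21 and -0.53 ± 0.14), and Ehmt1 (-0.41 ± 0.12). Their edgeR adjusted p ran from 0.00303 to 0.0412. Mphosph8 had whole counts in only 2 of the 7 libraries. Not called, among others, were Hdac1, Hdac2, Mta1, Gatad2a, Gatad2b, Rbbp4 and Rbbp7 (-0.29 to 0.18) and Pphln1 (0.02 ± 0.14). Of the 33 tested partners, 24 were below 0 and 9 above. Trim28 itself stood at 33.5, 41.1 and 38.8 TPM at 21 months, against 36.0, 39.1, 41.9 and 39.3 TPM at 3 months (-0.18 ± 0.10, edgeR adjusted p = 0.277). Setdb1 stood at 10.0, 8.92 and 9.97 TPM at 21 months, against 8.68, 9.58, 13.2 and 7.85 TPM at 3 months (-0.12 ± 0.14, 0.638). Fewer partners were lower with library-size scaling (2), with fragment length as a covariate (1), and on the log2(TPM + 1) scale, where 1 was lower and 1 higher. Without 21-month replicate 3, 1 was lower, without 3-month replicate 3 there were 2, and without 3-month replicate 4 there were 3.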

How the data were processed

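Liver RNA of C57BL/6 mice was measured in 3 libraries at 21 months and 4 at 3 months. The authors deposited estimated counts per gene (expected counts), which were rounded to whole numbers here, and TPM values, per the file headers. FPKM values were deposited by the authors beside them and were not used. Gene length and effective length came from the same tables; their deposited values are in bases, and the median difference per library served as the fragment length covariate. TopHat, RSEM, edgeR and mm9 are named, per the submitters' processing notes; no version or role is stated, nor whether counting used strand, so reads of overlapping antisense genes may be included.

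Genes were kept by filterByExpr (minimum count 10, minimum total 15), scaled by TMM and tested with edgeR 4.0.16 (robust quasi-likelihood, Benjamini-Hochberg over 11251 genes, threshold 0.05) in R 4.3.3; limma 3.58.1 and DESeq2 1.42.0 served in alternatives. Log2 fold changes run 21 over 3 months, with SE taken as its size over the root of F. Steps were tested on simulated data. Each library counted as 1 sample. Every pair within an age differed by more than counting noise, which separate libraries of the same animal could also do. A count of 0 allows up to 3 counts, 0.257 to 0.607 CPM by library, which covers counting error only. Figures used Python 3.11.15 with matplotlib 3.10.9. Coordinates and promoters are RefSeq GRCm38.p6, matched by gene and not by mm9 position.

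Same-numbered libraries of the 2 ages deviated together (correlation of deviations from the age means 0.110, 0.176 and 0.108 for replicates 1, 2 and 3; -0.225 to 0.157 for other pairs), so the replicate number was also fitted as a block. The labels do not say what the numbers share. Members, lists and tests were chosen with earlier results of these data known. Named genes were the members past the threshold, the 8 with the highest TPM, 16 chosen for a known role, the 6 smallest adjusted p among called genes of each comparison list, and Trim28, Setdb1 and Zfp57; others were chosen after their values were seen. Zfp638 was among the 16 and had no row under that symbol. Protein features had been planned and were not analysed here.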

Additional observations from a re-analysis of the deposited data

Results flagged for a closer look

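In 38 named genes with a count, the CPM of the 4 libraries of 3 months were searched for a library apart from the other 3, which chance alone gives in about 1 group of 20; 5 were found. Zfp644, a member, stood at 9.85 CPM in 3-month replicate 1, with the others at 8.44 to 8.50 CPM. Zfp110 stood at 23.7 CPM in 3-month replicate 1, with the others at 33.3 to 35.2 CPM, and Zfp9 at 8.15 CPM in 3-month replicate 2, with the others at 6.93 to 7.14 CPM. Setdb1 stood at 29.9 CPM in 3-month replicate 3, with the others at 20.4 to 21.9 CPM. Zfp57 stood at 0.515 CPM in 3-month replicate 2 and at 0 in the others. With the others at 0 any count is flagged, so this case cannot be set against the rate of 1 in 20.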

How the results depend on the processing

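Over 21 alternative settings the number of members called was 0 to 10, against 4. Lower and higher members were 1 and 1 with DESeq2, 6 and 4 with limma's sample weights, 1 and 0 with the replicate block, and 0 and 0 with fragment length as a covariate and on both log2(TPM) scales. Higher members were 3 with no filter on low counts (135 members tested) and 2 with ribosomal RNA rows removed, a length offset or an abundance offset. The share called over all genes also moved. It was 10.1% with DESeq2, 18.1% with sample weights, 9.55% with the block and 2.95% with fragment length. It was 8.35% of 16902 genes with no filter, 11.5% without ribosomal RNA rows, 13.1% with the length offset and 11.3% with the abundance offset. On the log2(TPM + 1) and log2(TPM + 0.1) scales it was 9.63% and 9.15%. The members' median was 0.10 and 0.11 on the log2(TPM + 1) and log2(TPM + 0.1) scales. Leaving out 1 library at a time gave 0 to 4 lower, 0 to 3 higher and a median of -0.053 to 0.052. These fits called 5.1% to 14.4% of all genes tested.

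Of the other numbered Zfp rows, 4 were lower and 3 higher with DESeq2 and with the replicate block, 2 and 2 with fragment length, 16 lower with sample weights, and 2 lower on both TPM scales. Their median was -0.14 with sample weights, -0.054 with no filter, -0.14 with the block and 0.0044 and 0.0040 on the TPM scales; without 1 library it was -0.13 to -0.053, with 2 to 11 lower and 2 to 6 higher. Silencing partners numbered 2 lower with library size only, 1 lower with fragment length and on both TPM scales, and 1 higher with sample weights, either offset and both TPM scales; without 1 library 1 to 5 were lower and 0 to 1 higher. Over all genes, 1085 lower and 953 higher were called with sample weights, 153 and 179 with fragment length, and 280 and 270 lower on the log2(TPM + 1) and log2(TPM + 0.1) scales, where 74.1% and 73.8% of calls were higher, against 48.3%. Without 1 library 250 to 900 were lower and 330 to 742 higher. The cause of these shifts was not tested; fits without a library hold fewer samples. The block changed no call of a named member but those of Zfp704, Zfp790 and Zfp787.

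Among the named genes, signs turned in 21 cases, none of them a called gene. With the block Zfp771 was at 0.086 and Zfp768 at -0.017. With sample weights Zfp768 was at -0.015 and Zfp644 at 0.0030. With fragment length Zfp771 was at 0.0067 and Zfp637 at 0.071. On the log2(TPM + 1) and log2(TPM + 0.1) scales Zfp771 was at 0.078 and 0.080, Zfp746 at 0.061 and 0.067, and Zfp644 at 0.043 and 0.055. Over the fits without 1 library the range was -0.14 to 0.083 for Zfp771, -0.017 to 0.081 for Zfp768, -0.25 to 0.087 for Zfp652, -0.29 to 0.025 for Zfp637, -0.056 to 0.13 for Zfp809, -0.11 to 0.029 for Zfp644, -0.059 to 0.39 for Zfp932 and -0.19 to 0.0041 for Setdb1. Counts limit what can be seen: the median tested member had 214.5 counts over 7 libraries, and 33 members were too low to test.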
